A study of Mus musculus with 9 samples.

Results

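The myeloid CC chemokine set consists of 6 ligand genes (Ccl2, Ccl3, Ccl4, Ccl6, Ccl7 and Ccl9) and 2 receptor genes (Ccr1 and Ccr2), taken by symbol from the deposited count tables. All 8 symbols were found among 23282 table entries, and all 8 were among the 13740 genes that passed the low-count filter. They were followed in back skin of wild-type (WT) mice of the C57BL/6 (B6) strain, in 3 groups of 3 libraries. The first group is unstripped skin labelled with control cream, the second is tape-stripped skin with control cream (stripped control), and the third is tape-stripped skin whose cream contained graphene oxide of nano size (NGO, a carbon material), at 50 µg in 100 µL per mouse. Tape stripping peels off the outer skin layers, and skin was taken 24 h after treatment. The treatment protocol places cream on stripped areas alone, so it is not known whether the unstripped skin received any. The labels state neither age nor sex. They do not tell whether the numbered replicates are different mice, so a p-value here weighs a difference against a spread among libraries that may be technical.

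CC chemokines are small secreted proteins that draw leukocytes along a gradient by binding G protein-coupled receptors. Ccl2 and Ccl7 are the classical ligands of Ccr2, the receptor that brings inflammatory monocytes out of bone marrow and into injured skin. Ccl3 binds Ccr1, and in mice Ccl6 and Ccl9 also act through Ccr1, a receptor of neutrophils and monocytes. Macrophages, monocytes and neutrophils are known producers of several of these ligands, and keratinocytes and fibroblasts also make Ccl2.

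All 6 ligand genes lie on chromosome 11 of mm10, in 2 neighbouring clusters. Ccl2 (82035571 to 82037453, plus strand) and Ccl7 (82045712 to 82047525, plus strand) form the first. In the second, Ccl9 (83572919 to 83578636, minus strand) lies 9246 bases from Ccl6 (83587882 to 83593087, minus strand), and Ccl3 (83647844 to 83649355, minus strand) lies 13229 bases from Ccl4 (83662584 to 83664683, plus strand). Ccr1 (123962124 to 123968692, minus strand) and Ccr2 (124101950 to 124113557, plus strand) lie on chromosome 9. These spans are those of GENCODE M21.

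RefSeq promoter sequences (GRCm38.p6, the assembly of mm10, 250 bases before to 50 after the annotated start) were matched for 5 of the 8 genes, namely Ccl3, Ccl6, Ccl9, Ccr1 and Ccr2. The 3 matched ligand promoters are printed because these ligands rose after stripping. They are Ccl3 (chr11:83649329-83649628, minus strand), Ccl6 (chr11:83593038-83593337, minus strand) and Ccl9 (chr11:83578587-83578886, minus strand), each read 5′ to 3′ along its own gene, with capitals at matches to the motifs searched.
Ccl3: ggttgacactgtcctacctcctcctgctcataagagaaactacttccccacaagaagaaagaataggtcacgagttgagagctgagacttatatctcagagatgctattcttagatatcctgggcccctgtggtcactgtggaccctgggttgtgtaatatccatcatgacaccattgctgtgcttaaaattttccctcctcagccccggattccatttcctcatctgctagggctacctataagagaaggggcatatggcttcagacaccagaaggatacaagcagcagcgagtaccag
Ccl6: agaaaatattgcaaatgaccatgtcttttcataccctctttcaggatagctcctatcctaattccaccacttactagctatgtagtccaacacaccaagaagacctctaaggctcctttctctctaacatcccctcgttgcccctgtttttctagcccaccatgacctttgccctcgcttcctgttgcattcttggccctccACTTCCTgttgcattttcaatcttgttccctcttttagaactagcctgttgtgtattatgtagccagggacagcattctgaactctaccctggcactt
Ccl9: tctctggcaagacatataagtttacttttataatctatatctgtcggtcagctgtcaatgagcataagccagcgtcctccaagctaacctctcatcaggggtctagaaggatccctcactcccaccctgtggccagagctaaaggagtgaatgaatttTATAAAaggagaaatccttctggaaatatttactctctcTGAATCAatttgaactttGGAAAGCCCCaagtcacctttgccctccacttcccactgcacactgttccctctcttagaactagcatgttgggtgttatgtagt

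The motifs searched were AP-1 (TGANTCA), C/EBP (TTGCNNAA), ETS (AGGAAGT) and NF-kB on both strands, and the TATA box, as TATAAA, on the gene's strand. The Ccl9 promoter held TATAAA 92 bases before the start, the AP-1 match TGAATCA 53 bases before it and an NF-kB match 35 bases before it. Of 32851 promoters of the same length, 8.32% held the TATA motif, 7.81% the AP-1 motif and 8.46% the NF-kB motif. The Ccl6 promoter held 1 ETS match, read as ACTTCCT on the gene's strand 48 bases before the start, a motif held by 9.35% of promoters. None of these letter patterns occurred in the printed Ccl3 window, nor in that of Ccr2, and the Ccr1 window held an NF-kB match 74 bases before the start. The C/EBP motif, held by 10.8% of promoters, was in none of the 5 windows, and no motif overlapped another. A match describes letters and not a bound site.

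The Ccl6 and Ccl9 promoters shared a stretch in which 58 of 74 aligned columns (78.4%) were identical, with a local alignment score of 38 against 9 to 12 for the other 9 pairs of the 5 windows. The stretch is printed because the ratio of these neighbouring genes is followed below. It is chr11:83593073-83593146 (minus strand) for Ccl6 and chr11:83578588-83578654 (minus strand) for Ccl9, and capitals mark identical bases.
Ccl6 stretch: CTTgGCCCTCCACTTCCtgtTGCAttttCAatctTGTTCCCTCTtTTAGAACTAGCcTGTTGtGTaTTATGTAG
Ccl9 stretch: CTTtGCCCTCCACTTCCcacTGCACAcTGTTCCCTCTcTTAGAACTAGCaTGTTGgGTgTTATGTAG
It begins 59 bases before the annotated start of Ccl6 and 18 bases before that of Ccl9, and it holds the ETS match of Ccl6. It does not reach the TATA, AP-1 and NF-kB matches of Ccl9.

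Library totals ran from 2794791 to 2937738 counts in unstripped skin, from 2019739 to 4053655 in stripped control skin and from 2997238 to 6303322 in NGO-treated skin. Levels are CPM (counts scaled to library size) with edgeR's TMM scaling. A 3′-tag library counts transcript ends and was not divided by length, so levels are compared between libraries and not between genes. The stripped control libraries stood apart. Of genes at 10 CPM or more in at least 1 library of the group, 20.4% were at 0 in another library of stripped control skin, against 1.07% for unstripped and 7.25% for NGO-treated skin, and their biological coefficient of variation was 1.1 against 0.464 and 0.836. Summed basal epidermal markers, which mark the labelled tissue, were 24010 to 32630 CPM in unstripped, 2010 to 3230 CPM in stripped control and 12830 to 19400 CPM in NGO-treated skin. Summed skeletal muscle markers were 218 to 1757, 54070 to 151200 and 24530 to 58970 CPM in the same order. The part of tissue make-up and of library quality in the results below was not tested, and in bulk tissue fewer cells of a type and less RNA per cell cannot be told apart.

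After tape stripping, 5 of the 6 ligand genes rose and neither receptor gene passed the test. The called ligands were Ccl3, Ccl4, Ccl6, Ccl7 and Ccl9, each of which was higher in every stripped control library than in any unstripped library. The 5 called members, all higher, were read against a background of 5.97% of tested genes called higher (edgeR quasi-likelihood test, Benjamini-Hochberg adjusted over 13740 genes, called under 0.05). The 7 members whose libraries were all above the unstripped ones were read against 13.8% of genes with no overlap in that direction. The members' median log2 fold change was 5.30, also with Ccl3 at its lower bound, against -0.20 over all genes tested. Members near 0 in unstripped skin passed the low-count filter through their stripped libraries, so this median and the count of members without overlap are descriptions.

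**Figure D1:**
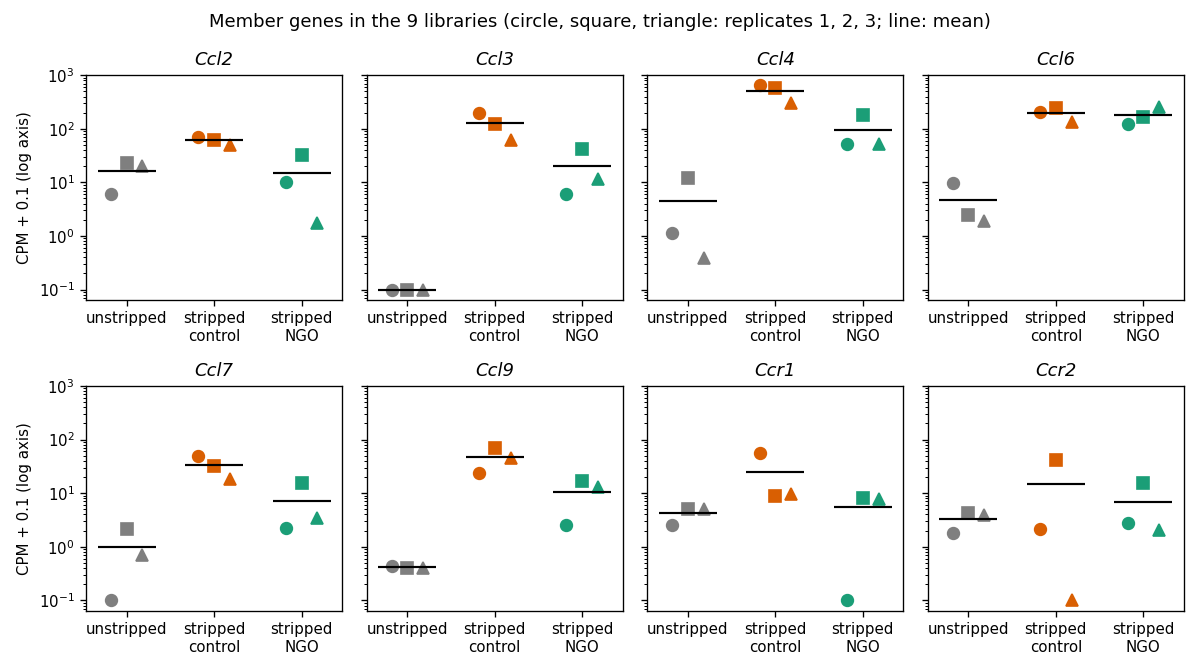
Level of each member (TMM-scaled CPM plus 0.1, log axis) in each of the 9 libraries, by group, 1 panel per gene, with points for libraries and horizontal lines for group means. Stripped control points lie above every unstripped point for all members but Ccr2, and NGO-treated points lie below every stripped control point for all members but Ccl6 and Ccr2.

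Ccl3, an early-response chemokine gene of activated macrophages, had 0 counts in all 3 unstripped libraries and 196, 125 and 63.0 CPM in stripped control libraries 1, 2 and 3. The unstripped and stripped control values did not overlap. With 3 counts over the group as the floor (0.310 CPM), Ccl3 was at least 413-fold higher after stripping (edgeR adjusted p = 0.000198). The bound ran from 268 to 517 with 1 library left out.

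Ccl4, its neighbour and another chemokine gene of activated macrophages, was at 1.03, 11.8 and 0.295 CPM in unstripped skin and at 656, 567 and 308 CPM in stripped control skin. Unstripped library 2 held most of the Ccl4 counts of its group and still lay far below every stripped control library. The log2 fold change was 6.84 ± 0.99 (SE, edgeR adjusted p = 0.000468). It was 9.54 without unstripped library 2.

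Ccl6, a mouse Ccr1 ligand, was at 9.63, 2.36 and 1.77 CPM in unstripped skin and at 206, 244 and 135 CPM in stripped control skin. The groups were far apart, with unstripped library 1 the highest of its group. The log2 fold change was 5.42 ± 0.63 (SE, edgeR adjusted p = 0.000107), and 6.52 without unstripped library 1.

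Ccl9, the other mouse Ccr1 ligand, had 1 count in each unstripped library, which is 0.344, 0.295 and 0.295 CPM. It stood at 23.8, 70.2 and 46.0 CPM in stripped control skin, with library 1 the lowest. Since the unstripped counts were so few, the change is given as a ratio of scaled counts of 161, with a 95% counting interval of 54.7 to 784 (edgeR adjusted p = 0.00104).

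Of the 2 Ccr2 ligands, Ccl7 passed and Ccl2 did not. Ccl7 was at 0, 2.06 and 0.590 CPM in unstripped skin and at 49.7, 32.5 and 18.6 CPM in stripped control skin, with no overlap. Its log2 fold change was 5.17 ± 1.40 (SE, edgeR adjusted p = 0.0253). That call ended when unstripped library 1 (adjusted p = 0.0837), unstripped library 3 (0.108) or stripped control library 1 (0.0514) was left out of the edgeR fit, and without unstripped library 2 the change was 6.60.

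Ccl2, the main monocyte attractant of the set, was already present in unstripped skin at 5.85, 23.0 and 20.04 CPM, against 70.4, 61.7 and 49.2 CPM in stripped control skin. The groups did not overlap. The log2 difference of 1.89 ± 0.88 (SE) had a 95% interval of -0.006 to 3.78 and did not pass (edgeR adjusted p = 0.181). With limma-voom and sample weights the difference of 1.59 passed (adjusted p = 0.043).

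The receptor genes had few counts. Ccr1 was at 2.41, 5.01 and 5.01 CPM in unstripped skin and at 56.9, 8.77 and 9.64 CPM in stripped control skin. Every stripped control library was above every unstripped one, but library 1 held most of the level. The log2 difference was 2.58 ± 1.43 (SE, edgeR adjusted p = 0.272), and it was smaller, with an adjusted p of 0.692, without stripped control library 1.

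Ccr2 was at 1.72, 4.13 and 3.83 CPM in unstripped skin and at 2.07, 41.6 and 0 CPM in stripped control skin. A single stripped control library, number 2, held almost all of it, and the groups overlapped. The log2 difference of 2.16 ± 1.74 (SE, edgeR adjusted p = 0.484) turned to -1.73 without that library.

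**Figure D2:**
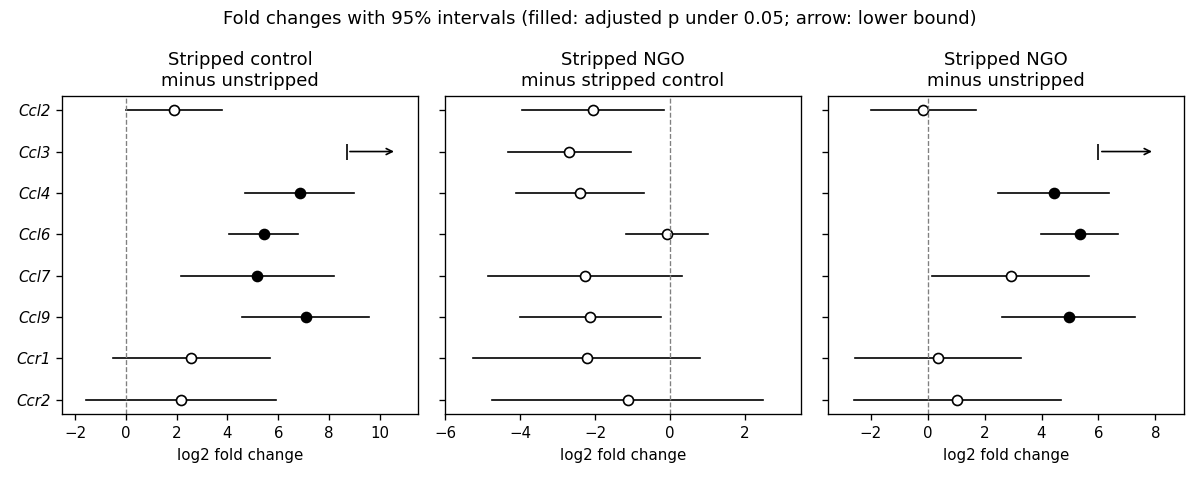
Log2 fold change of each member in the 3 comparisons (edgeR, horizontal axis in log2 units), with 95% intervals as bars, filled points for adjusted p under 0.05 and arrows for lower bounds where the unstripped libraries were at 0. Called members lie to the right of 0 in both comparisons with unstripped skin, and no point is filled in the comparison of NGO-treated with stripped control skin.

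Marker lists of myeloid cells are given beside these ligands. Summed neutrophil markers were 170 to 198 CPM in unstripped and 4198 to 11250 CPM in stripped control skin, and 11 of 18 tested markers rose. S100a9, a calcium-binding protein gene of neutrophils that injured keratinocytes also express, went from a mean of 2.26 to 3091 CPM. Summed monocyte and macrophage markers were 276 to 395 and 625 to 1380 CPM, with 3 of 20 called higher (Cd68, Cd14 and Fcer1g), 1 called lower and 16 not called, and the monocyte receptor gene Csf1r was at a mean of 52.0 CPM in unstripped and 26.7 CPM in stripped control skin (edgeR adjusted p = 0.368). Of the monocyte list, Ms4a7 had no count in unstripped skin, as had the neutrophil genes Stfa2l1, Fpr1 and Clec4d. Mast cell and basophil markers summed to at most 6.19 CPM in unstripped and 11.1 CPM in stripped control skin, and Fcer1a was at 0 in all 9 libraries. Summed fibroblast markers were 441 to 450 CPM in unstripped, 1170 to 1699 CPM in stripped control and 756 to 1656 CPM in NGO-treated skin, and endothelial markers 45.4 to 63.6, 408 to 746 and 240.1 to 384 CPM. Adipocyte markers summed to 78.1 to 115, 938 to 1323 and 649 to 879 CPM in the same order of groups. Red blood cell genes summed to 47.8 to 172, 1094 to 1563 and 321 to 519 CPM. Of these genes, Hbb-bt and Hbb-b2 had equal total counts with NGO (307 each), as had Hbb-bs and Hbb-b1 (646 each). The red blood cell sums may therefore hold the same reads under several names. Langerhans and dendritic cell markers went the other way, at 747 to 817, 141 to 249.3 and 303 to 341 CPM. The part of these cell types in the ligand levels was not tested.

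**Figure D3:**
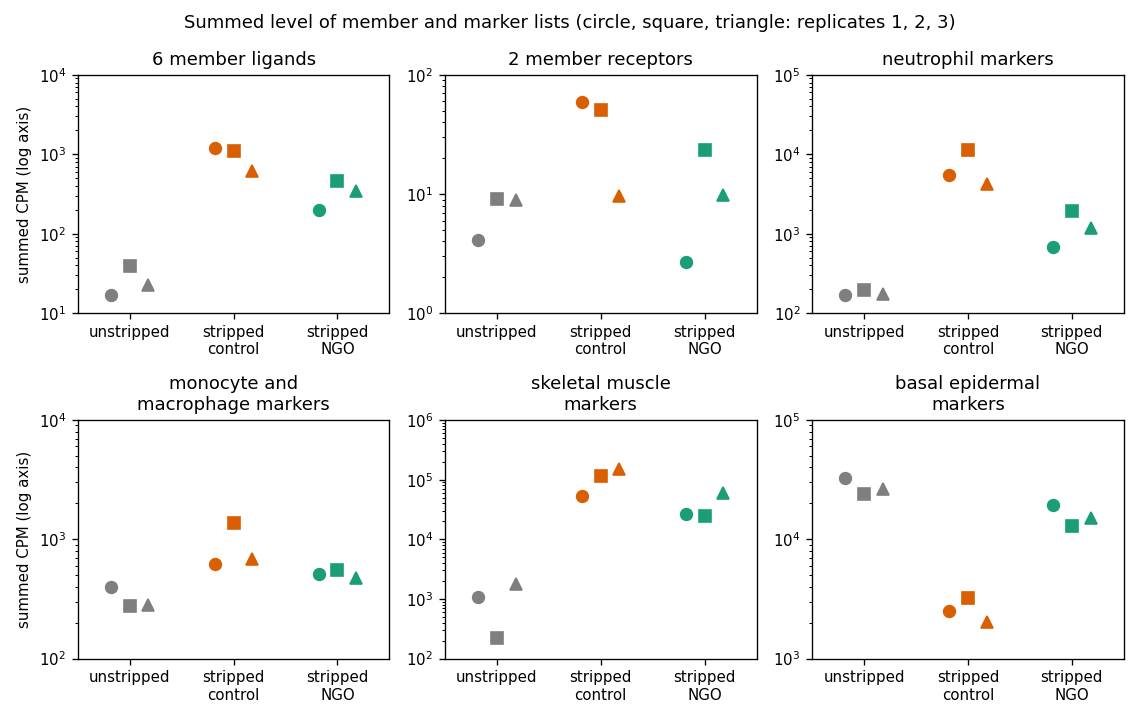
Summed level (CPM, log axis) of the member ligands and of marker lists in each of the 9 libraries, by group, with 1 point per library. The member ligands sum to 16.9 to 39.5 CPM in unstripped, 619 to 1202 CPM in stripped control and 197 to 458 CPM in NGO-treated skin. The neutrophil markers and the monocyte and macrophage markers are ordered in the same way. So are the endothelial, red blood cell and adipocyte markers, which are not drawn.

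With NGO cream, 0 of 8 members passed against stripped control skin, where 5.05% of all tested genes were called and 1.18% were called lower (edgeR). At an unadjusted p under 0.05 there were 4 members (Ccl2, Ccl3, Ccl4 and Ccl9), against 21.2% of genes. DESeq2 called 1 member (Ccl3) and limma-voom 2 (Ccl3 and Ccl4), all lower. For 6 members every NGO-treated library was below every stripped control library, against 8.92% of genes without overlap in that direction. The members' median log2 difference was -2.18, against 0.07 over all genes. Members low in unstripped and NGO-treated skin, such as Ccl7 and Ccl9, could pass the low-count filter through their stripped control libraries. In this comparison too, the median and the count of members without overlap are descriptions.

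Ccl3 was at 6.04, 42.1 and 11.3 CPM in the NGO-treated libraries, where stripped control libraries held 63.0 CPM or more. NGO-treated library 2 was the highest and lay below the lowest stripped control library. The log2 difference of -2.68 ± 0.75 (SE) had a 95% interval of -4.33 to -1.04 and an edgeR adjusted p of 0.0642. Ccl3 passed without NGO-treated library 2, with a difference of -3.85 (edgeR adjusted p = 0.0338), and without the low-count filter (0.00937).

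Ccl4 was at 52.5, 183 and 52.6 CPM with NGO, again highest in library 2 and below the stripped control range. The log2 difference was -2.41 ± 0.79 (SE), with a 95% interval of -4.11 to -0.70 (edgeR adjusted p = 0.0978). It passed without unstripped library 2, at -2.40 (edgeR adjusted p = 0.024), a library that enters this comparison through the shared estimate of the spread. Without NGO-treated library 2 it was -3.27 (0.0916).

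Ccl9 was at 2.42, 16.4 and 13.0 CPM with NGO, all below the stripped control values. Its log2 difference of -2.13 ± 0.88 (SE) did not pass (edgeR adjusted p = 0.178). Ccl7 was at 2.11, 15.5 and 3.33 CPM, also with no overlap, and its difference was -2.26 ± 1.20 (SE, edgeR adjusted p = 0.303), or -3.59 without NGO-treated library 2 (0.209). For both, NGO-treated library 2 was the highest of its group.

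Ccl2 was at 10.3, 31.9 and 1.66 CPM with NGO, a spread that covered the unstripped values and stayed under the stripped control values. The log2 difference of -2.05 ± 0.88 (SE) had a 95% interval of -3.95 to -0.15 (edgeR adjusted p = 0.199), and it was -3.35 without NGO-treated library 2 (0.0981).

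Ccl6 was the member ligand whose NGO-treated and stripped control libraries overlapped. It was at 124, 169 and 259 CPM with NGO against 206, 244 and 135 CPM in stripped control skin. The highest of these 6 libraries was NGO-treated library 3, and the lowest NGO-treated library 1. The log2 difference was -0.08 ± 0.51 (SE), with a 95% interval of -1.17 to 1.006 (edgeR adjusted p = 0.951), and its sign turned without stripped control library 2 (0.16) or NGO-treated library 1 (0.14). The mean with NGO was 94.4% of the stripped control mean for Ccl6, and between 15.5% (Ccl3) and 24.2% (Ccl2) for the other 5 ligands.

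For the receptors, Ccr1 was at 0, 8.10 and 7.82 CPM with NGO, just below the stripped control values of libraries 2 and 3. The log2 difference was -2.22 ± 1.41 (SE, edgeR adjusted p = 0.398), and without stripped control library 1 it was -0.81. Ccr2 was at 2.72, 15.3 and 1.996 CPM, inside the stripped control range. Its difference of -1.13 ± 1.68 (SE, edgeR adjusted p = 0.766) turned to 2.76 without stripped control library 2.

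In the same comparison, summed neutrophil markers were 675 to 1911 CPM with NGO, with 5 of 18 called lower (Retnlg, Hdc, S100a8, S100a9 and Mmp8), S100a9 to a mean of 547 CPM (a call that ended in the fit of the 2 compared groups, adjusted p = 0.063, and without NGO-treated library 1 or 3, 0.0527 and 0.051). Summed monocyte and macrophage markers were 476 to 554 CPM, below the stripped control range, with 1 of 20 called higher and 0 lower by edgeR. At an unadjusted p under 0.05 there were 6, of which 5 were lower, DESeq2 called 5, of which 4 were lower, and limma-voom called 2, both lower. Of the 22 muscle markers 0 passed edgeR, 14 had an unadjusted p under 0.05, DESeq2 called 2 and limma-voom 4, with a median log2 difference of -1.56 in edgeR, and 9 of 14 basal epidermal markers rose. The part of these lists in the ligand differences was not tested.

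Shares of the summed member ligand counts set the ligands side by side within a library. Their pattern was seen before it was described, and it was not tested. The share of Ccl6 was 17.1% (exact 95% interval 15.6 to 18.7), 22.2% (20.8 to 23.6) and 21.8% (19.9 to 23.7) in stripped control libraries 1, 2 and 3. It was 62.8% (59.0 to 66.5), 36.9% (34.7 to 39.0) and 76.0% (74.1 to 77.8) with NGO, above the stripped control share in each library. Intervals and floors cover counting error only, and the reads carried no stated molecular identifiers. The share of Ccl4 was 54.6%, 51.6% and 49.7% among the stripped control libraries and 26.7%, 40.03% and 15.4% with NGO, also without overlap. A share falls when another rises, and the total behind it was 1926 to 3387 counts for stripped control and 653 to 2050 for NGO-treated libraries. The unstripped totals of 49 to 134 counts gave Ccl6 shares from 5.97% to 57.1%, and Ccl2 took between 34.7% and 87.2% of counts there.

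**Figure D4:**
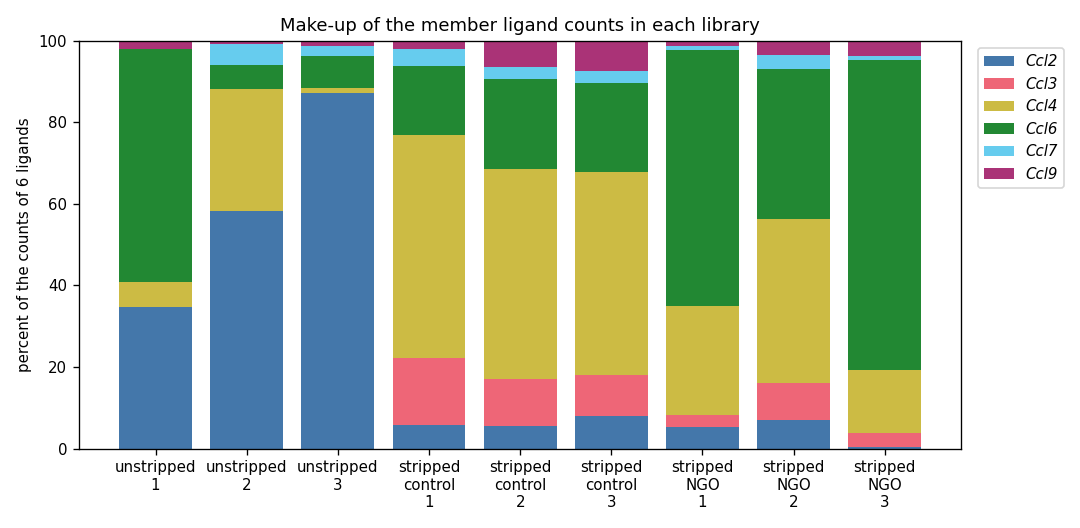
Share of each of the 6 member ligands in the summed member ligand counts (percent, stacked bars from 0 to 100) in each of the 9 libraries. Ccl6 fills 17.1% to 22.2% of the stripped control bars and 36.9% to 76.0% of the NGO-treated bars.

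Ratios of counts of neighbouring genes compare members within a library and do not depend on the scaling between libraries. The ratio of Ccl6 to Ccl9 was 8.65, 3.48 and 2.93 among the stripped control libraries and 51.3, 10.3 and 19.97 with NGO. In unstripped skin it was 28, 8 and 6, each over 1 count of Ccl9, values that overlap both stripped groups. Every NGO-treated library was above every stripped control library. The mean log2 ratio differed by 2.30 (exact two-sided permutation p = 0.1, and 0.3 adjusted over the 3 pairs of neighbours). That p is the smallest that 3 against 3 libraries allow, and groups without overlap always give it. The ratio carries the pattern of the Ccl6 shares, which was seen first, so this p is no separate test of that pattern.

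The ratio of Ccl3 to Ccl4 was 0.298, 0.220 and 0.205 among the stripped control libraries and 0.115, 0.230 and 0.215 with NGO. These ranges overlapped, and the mean log2 ratio differed by -0.41 (exact two-sided permutation p = 0.5, adjusted 0.75). In unstripped skin no Ccl3 count accompanied the 44 counts of Ccl4. The ratio of Ccl2 to Ccl7 was 1.42, 1.90 and 2.64 among the stripped control libraries and 4.86, 2.06 and 0.50 with NGO, a difference in mean log2 ratio of -0.17 (exact two-sided permutation p = 0.9, adjusted 0.9). In unstripped skin, where 163 Ccl2 and 9 Ccl7 counts were found in all, the ratio was 11.1 and 34 in libraries 2 and 3, and library 1 had no Ccl7 count.

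**Figure D5:**
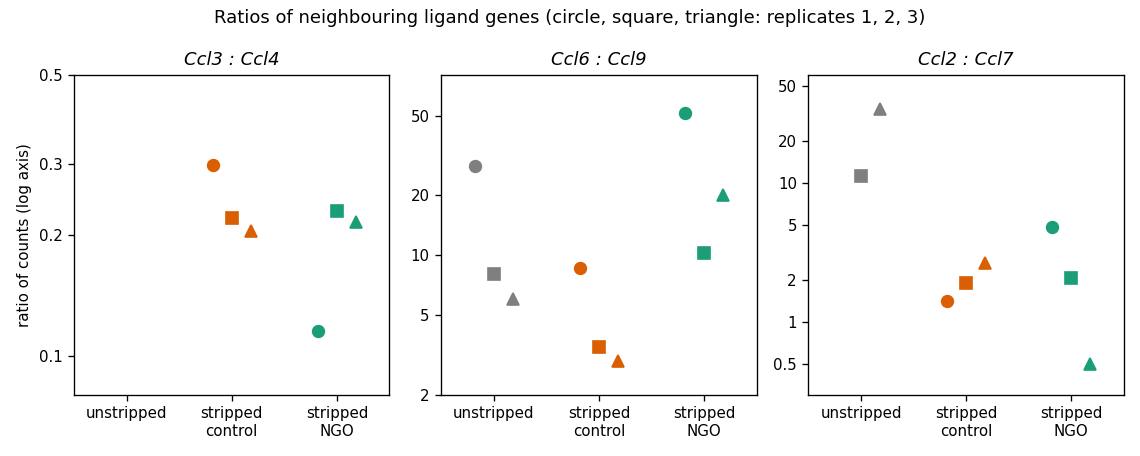
Ratio of counts (log axis) of 3 pairs of neighbouring ligand genes in each library, by group, with marker shape for the replicate number. Unstripped Ccl3 to Ccl4 ratios, all 0, and the unstripped library 1 ratio of Ccl2 to Ccl7, whose Ccl7 count was 0, cannot be drawn. The Ccl6 to Ccl9 ratio is 2.93 to 8.65 among the stripped control libraries and 10.3 to 51.3 with NGO.

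Against unstripped skin, 4 members rose in NGO-treated skin, namely Ccl3, Ccl4, Ccl6 and Ccl9, where 2.06% of all genes were called higher (edgeR). For 5 members the NGO-treated libraries were all above the unstripped ones, against 11.9% of genes. The members' median log2 difference was 3.67, also with Ccl3 at its lower bound, against -0.07 over all genes. Here too, members near 0 in unstripped skin passed the low-count filter through their stripped libraries. The median and the count of members without overlap are therefore descriptions. This comparison and the one after stripping share the unstripped libraries, and it shares the NGO-treated libraries with the comparison between the stripped groups.

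Ccl6 had the change with the smallest adjusted p of the set, with a log2 fold change of 5.34 ± 0.63 (SE, edgeR adjusted p = 0.00048), or 6.45 without unstripped library 1. Ccl3 was at least 64.0-fold higher, computed as after stripping (edgeR adjusted p = 0.0042). That bound was 28.0-fold without NGO-treated library 2 and 41.6-fold without unstripped library 2 or 3. Ccl4 rose by 4.43 ± 0.91 (SE, edgeR adjusted p = 0.0158), a call that ended without the low-count filter (0.223), without unstripped library 1 (0.0745) or without NGO-treated library 2 (0.0833). Without unstripped library 2 it was 7.14. Every NGO-treated library of these 3 genes lay above every unstripped library.

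Ccl9 showed a ratio of scaled counts of 37.2 between NGO-treated and unstripped skin, with a 95% counting interval of 12.5 to 182 (edgeR adjusted p = 0.0261). Leaving out any unstripped library (adjusted p = 0.0974, 0.142 and 0.138 without 1, 2 and 3), stripped control library 2 (0.051) or NGO-treated library 2 or 3 (0.0821 and 0.0737) ended that call. Ccl7 was higher in every NGO-treated library but did not pass, with a difference of 2.91 ± 1.29 (SE, edgeR adjusted p = 0.385), or 1.57 without NGO-treated library 2 and 4.35 without unstripped library 2.

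Ccl2 differed by -0.16 ± 0.86 (SE) from unstripped skin (edgeR adjusted p = 0.995), and its libraries overlapped. The receptor genes overlapped too. Ccr1 differed by 0.36 ± 1.36 (SE, edgeR adjusted p = 0.991) and Ccr2 by 1.04 ± 1.69 (SE, edgeR adjusted p = 0.961). The signs of these 3 differences turned when single libraries were left out.

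The search for like profiles covered 8744 abundant tested genes that are no members, without predicted or clone symbols (Gm followed by digits, or ending in Rik). A set of 6 of these genes had the profile most like the mean of the 6 ligands over the 9 libraries. They were Retnlg, a resistin-like gene of neutrophils (Pearson r = 0.981), Pira2 and Pira1, immunoglobulin-like receptor genes (both 0.977), Il1b, the interleukin gene (0.977), Plekho1 and Lrrc46 (both 0.974). The r is given as a description over libraries that fall into 3 groups. These genes were picked by profile over the same libraries, so lower levels with NGO than in stripped control skin are partly a result of the choice. Pira1 and Pira2 had equal counts per group and may be 1 measurement counted under 2 names. With NGO against stripped control, both differed by -0.96 on the log2 scale and did not pass (edgeR adjusted p = 0.605). Nor did Plekho1, at -1.39 (0.293), and Lrrc46, at -1.06 (0.0851). Mean Retnlg was 0.295, 264 and 28.2 CPM in unstripped, stripped control and NGO-treated skin, and it fell by 3.22 on the log2 scale with NGO (edgeR adjusted p = 0.0389). That call ended without the low-count filter (0.144), in the fit of the 2 compared groups (0.0937) and without unstripped library 1 (0.0519), stripped control library 2 (0.102) or NGO-treated library 1 or 3 (both 0.121), and the value was -4.67 without NGO-treated library 2. Mean Il1b was 6.26, 568 and 109 CPM, and it fell by 2.38 (edgeR adjusted p = 0.012), a call that ended in the fit of the 2 compared groups (0.0553) and without NGO-treated library 1 (0.0677) or 3 (0.0535).

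Among the other CC chemokine genes, 3 of 15 listed ligands and 8 of 12 listed typical and atypical receptors had enough counts to test. Ccl17, Ccl22, Ccl24 and Ccl26 had no count in any library. Ccl27a, the skin-homing chemokine gene of keratinocytes, moved opposite to the myeloid ligands, at 728 to 1389 CPM in unstripped, 5.17 to 24.4 CPM in stripped control and 61.1 to 135 CPM in NGO-treated skin. It fell by 6.34 on the log2 scale after stripping (edgeR adjusted p = 4.76e-05) and rose by 3.15 ± 0.56 (SE) with NGO against stripped control (edgeR adjusted p = 0.00782). Without stripped control library 3 these values were -7.41 and 4.26. Ackr4, a receptor that takes up chemokines without G protein signalling, was at 67.4 to 98.5 CPM in unstripped, had 1 count in all stripped control libraries and was at 3.01 to 30.5 CPM with NGO. The ratio of scaled counts of NGO-treated to stripped control skin was 121, with a 95% counting interval of 21.4 to 4796 (edgeR adjusted p = 0.00687), and Ackr4 also fell after stripping (edgeR adjusted p = 0.000217). The calls of Ccl27a and Ackr4 with NGO against stripped control ended by limma-voom (adjusted p = 0.11 for both) and in the fit of the 2 compared groups (0.0678 and 0.146). Ackr1, another atypical chemokine receptor, rose by 4.87 ± 1.17 after stripping (SE, edgeR adjusted p = 0.0134), with 99.3, 14.3 and 20.9 CPM in stripped control libraries 1, 2 and 3. That call ended without stripped control library 1, at 3.61 (adjusted p = 0.0538).

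Of 14 tested genes of leukocyte chemokine signalling, 1 rose after stripping, Rac2, a small GTPase gene of blood cells (log2 fold change 3.13 ± 0.91, SE, edgeR adjusted p = 0.0346). That call ended without the low-count filter (0.0587), with the replicate block (0.0841) and without any 1 unstripped library (0.0941 to 0.156) or stripped control library 2 (0.0882). None of the 14 passed edgeR with NGO against stripped control skin, 1 had an unadjusted p under 0.05, DESeq2 called 1 and limma-voom 0. There Rac2 was at 3.02, 10.4 and 5.99 CPM against 41.9, 52.3 and 24.4 CPM in stripped control skin (adjusted p = 0.105).

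Genes beside the second ligand cluster give its surroundings. Wfdc17, a whey acidic protein family gene 39308 bases from Ccl4, was at a mean of 0.491 CPM in unstripped, 86.0 CPM in stripped control and 28.0 CPM in NGO-treated skin. All 5 of its unstripped counts were in library 3. It rose by 7.31 ± 1.09 after stripping (SE, edgeR adjusted p = 0.00054) and differed by -1.62 ± 0.79 with NGO (SE, edgeR adjusted p = 0.261). Its neighbour Wfdc18 had no count in any library, and Ccl5, a T cell chemokine gene 42401 bases from Ccl9, had 49 counts in all 9 libraries. Overlapping genes could share reads with members, since no source states whether counting used the strand. Gm17268, which has no entry in the count tables, spans all of Ccl2 on the opposite strand. E230016K23Rik, which overlaps Ccl6 on the opposite strand, had at most 5 counts in a library, and the RefSeq span of Ccl4 overlaps part of Ccl3, without its 3′ end, on the opposite strand. None of the 50-base stretches in the last 300 bases of any member's transcripts occurred in the transcripts of another gene.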

How the data were processed

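RNA from back skin (Trizol, 500 ng) was made into Lexogen QuantSeq 3′-tag libraries, per the labels' protocols. For every library, the authors deposited raw whole-number counts by gene symbol. The submitters' processing notes name Bowtie2, bedtools and mm10 without versions. How strand, overlapping genes and reads with several matches were handled is not given in the sources used. Repeat entries of a symbol were kept apart. In R 4.3.3, edgeR 4.0.16 (robust quasi-likelihood test, TMM scaling, filterByExpr) was fitted to all 9 libraries by group, with 1 shared estimate of the spread and Benjamini-Hochberg adjustment over 13740 genes. The fit was run on simulated data with the same spread in every group. That run does not tell how the fit does under the unequal spread of these groups. The members and all gene lists were chosen with earlier results of these data known. Every member was named, with the called genes of the CC and signalling lists, up to 3 genes of a marker list by level and the 6 genes most like the ligands by Pearson r of log2 CPM (prior count 2, average of at least 3). Cd68, Cd14, Fcer1g, Csf1r, Retnlg and Mmp8 as markers, and the neighbours were added after their values were seen. Some genes of the lists are not reported here. Library depth was 2019739 to 6303322 counts, and the floor of 3 counts over a group was 0.310, 0.369 and 0.220 CPM in unstripped, stripped control and NGO-treated skin. The closing section gives the effect of 2 other scalings, other filters, other library sizes, DESeq2 1.42.0, limma-voom (limma 3.58.1), a replicate block, a fit of the compared groups alone and leaving out each library.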

Additional observations from a re-analysis of the deposited data

How the results depend on the processing

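Across 18 alternatives to the edgeR fit, between 4 and 6 members were called after stripping and between 2 and 4 with NGO against unstripped skin, with 4 to 5 and 2 to 4 when 1 library was left out. The 2 came without unstripped library 1 and without NGO-treated library 2. With NGO against stripped control skin, 0 members became 1 without the low-count filter (Ccl3), with DESeq2 (Ccl3) and with the replicate block (Ccl4), 2 with limma-voom, and 0 to 1 when 1 library was left out. Genes called after stripping were 1870, 2976 with DESeq2 and 1159 to 2124 with 1 library left out. With NGO against stripped control they were 694, with 1721 by DESeq2, 414 by limma-voom, 118 in the fit of the 2 compared groups and 206 to 929 with 1 library left out. Against unstripped skin they were 345, then 756, 1353, 602 and 214 to 495 in the same order. Of the other CC genes, 3 were called after stripping, with 6 by DESeq2, 7 by limma-voom, 5 in the fit of the 2 compared groups and 2 to 4 with 1 library left out. With NGO against stripped control, 2 became 0 by limma-voom and 0 in the fit of the 2 compared groups. Against unstripped skin, 1 became 2 without the filter, 3 by DESeq2 and 5 by limma-voom. The split of genes called after stripping, 820 higher and 1050 lower, was 948 and 931 with RLE scaling, which moved the median of all genes by 0.13 there and by -0.12 with NGO, and 1405 and 1184 by limma-voom.

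Differences changed sign as follows, and the cause was not tested. Under limma-voom Ccr2 was at -0.47 after stripping and 0.66 with NGO against stripped control, and Ccr1 at -1.58 with NGO against unstripped skin. With 1 library left out, Ccr2 ran from -1.73 to 2.79 after stripping, from -2.61 to 2.75 with NGO against stripped control and from -0.46 to 1.45 against unstripped skin. In the same fits Ccl6 ran from -0.45 to 0.16 with NGO against stripped control, Ccl2 from -1.48 to 0.35 and Ccr1 from -0.067 to 0.93 against unstripped skin.

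Deviations of same-numbered libraries from their group means had r from -0.06 to 0.09. With so few libraries per group, these values cannot tell whether same-numbered libraries share an animal or a batch. With the replicate number as a block, Ccl4 passed with NGO against stripped control, at -2.74 (edgeR adjusted p = 0.0267), and Ccl9 did not pass against unstripped skin (0.0619). The Ccl3 bounds of the report cover counting error only and move with the libraries left in.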
